A study of Mus musculus with 6 samples.

Results

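S100 proteins are small calcium-binding proteins that work inside cells as calcium sensors and, when released, as signals to other cells. The transcripts of 8 S100 genes (S100a1, S100a4, S100a6, S100a8, S100a9, S100a10, S100a11 and S100a13) were followed in foamy and non-foamy macrophages of the mouse aortic intima. They were chosen by name, with earlier results of these data known. They were matched by their Ensembl identifiers to 8 of the 41388 genes in the count tables. All animals were C57BL/6 mice of genotype ApoE -/-, which develop plaques because they lack apolipoprotein E, and the series design gives 6 mice kept for 28 weeks on a Western diet. Foamy macrophages were sorted as live CD64+CD11b+ cells with high side scatter and a high signal of BODIPY493/503, a dye of neutral lipid, and non-foamy macrophages as live CD64+CD11b+ cells low in both. Age, sex and the division of the mice among libraries are not given in the labels, and no wild-type group was analysed here. Each population was read as 3 RNA-seq libraries, so the p-values rest on the spread among libraries alone, and that spread may be technical.

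Most S100 proteins carry a pair of EF-hands, helix-loop-helix motifs that bind calcium, and work as dimers that bind target proteins once calcium is bound. S100a8 and S100a9 form calprotectin, which neutrophils and monocytes carry in large amounts, which sequesters metal ions and which activates Toll-like receptor 4 and the receptor RAGE. S100a10 is unusual in that its EF-hands do not bind calcium, and it forms a complex with annexin A2. In macrophages, S100 proteins are known for roles in motility, membrane repair and the release of inflammatory signals.

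Total counts in genes ran between 18592421 and 24279802 for foamy libraries and between 15628627 and 24619075 for non-foamy ones. Levels below are CPM (counts per 1000000 counts in genes) normalized with TMM factors unless another unit is named. A gene is called where the edgeR quasi-likelihood test gave a Benjamini-Hochberg adjusted p below 0.05 over all 11303 genes tested. All 9 macrophage markers were detected in every library, but they did not move together: 2 were called higher in foamy libraries, beside 2.5% of all genes tested, 3 were called lower, beside 2.9%, and 4 were not called. Itgam, which encodes CD11b of the sorting gate, had 70.3, 85.9 and 77.3 CPM in foamy replicates 1 to 3 against 127, 148 and 151 CPM in non-foamy replicates 1 to 3, and was called lower (log2 fold change -0.87, edgeR adjusted p = 0.023). Fcgr1, which encodes CD64 of the gate, was not called (log2 fold change 0.35, edgeR adjusted p = 0.50). Adgre1 (-0.83) and Csf1r (-1.28) were also called lower, and Cd68 (0.97) and Mertk (1.37) higher.

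All 8 genes lie on mouse chromosome 3, in the GRCm38 coordinates of the tables. A block of 185 kb, from 90511034 to 90695721, holds 6 of them among 12 family genes, and S100a11 and S100a10 lie together in a second block from 93520488 to 93564643. S100a1 and S100a13 stand next to each other and point in opposite directions, with 42 bases between their outermost exons in the tables. S100a8 and S100a9, the genes of the calprotectin subunits, are neighbouring family genes on opposite strands. RefSeq upstream sequence (GRCm38.p6) was found for 7 of the 8 genes, all but S100a10. The 104 bases that separate the RefSeq starts of S100a1 and S100a13 (chr3:90514331-90514434, plus strand) are shown because S100a1 was called between the populations and its neighbour was not, and the 250 bases upstream of S100a8 (chr3:90668821-90669070, plus strand) and of S100a9 (chr3:90695722-90695971, minus strand) because S100a9 was called and S100a8 was not. Capitals mark every match to the motifs listed after the sequences.
S100a1-S100a13 interval: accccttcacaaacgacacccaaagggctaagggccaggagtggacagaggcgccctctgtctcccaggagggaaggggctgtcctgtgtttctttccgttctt
S100a8 upstream: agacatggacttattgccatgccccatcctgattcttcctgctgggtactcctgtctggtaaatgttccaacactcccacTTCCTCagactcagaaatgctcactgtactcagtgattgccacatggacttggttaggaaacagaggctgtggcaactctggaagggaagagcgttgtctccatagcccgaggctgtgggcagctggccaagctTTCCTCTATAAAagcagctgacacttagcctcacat
S100a9 upstream: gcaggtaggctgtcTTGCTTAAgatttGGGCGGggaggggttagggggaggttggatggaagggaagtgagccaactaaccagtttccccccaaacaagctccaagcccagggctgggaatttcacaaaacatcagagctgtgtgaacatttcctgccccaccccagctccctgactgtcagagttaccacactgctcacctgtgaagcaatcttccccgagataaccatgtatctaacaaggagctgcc

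Both strands of the 250 bases upstream of each RefSeq start were searched for 6 motifs, none of which overlap in the matches shown. The TATA box letters TATAAA were present upstream of S100a8, with their first base 30 bases before the start, and of S100a4, 31 bases before it, against 12.4% of all 32851 windows of this length. The C/EBP-type letters TTGCNNAA were present only upstream of S100a9 among the 7 genes, 236 bases before its start, against 9.56% of all windows. The PU.1-type core GAGGAA or its reverse TTCCTC was present upstream of S100a8 and S100a11, against 23.3% of windows. The GC box GGGCGG was present upstream of S100a9 and S100a11 (32.7% of windows), and the AP-1-type letters TGANTCA (6.75%) and the E-box CACGTG (6.02%) upstream of S100a11. None of the 6 was found upstream of S100a1, S100a13 or S100a6. A match is a string of letters and not a measured binding site.

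The S100 genes were not called in a single direction. S100a1 was called higher and S100a9 lower in foamy libraries, and 6 of the 8 were not called. The 2 called among 8 stand beside 5.41% of all genes tested. Calls in both directions were not kept under every setting. S100a4 and S100a9, both lower, were the genes called under scaling by total counts, S100a1 alone was called in limma-voom and with the stricter filter, and none was without non-foamy replicate 2. S100a9 was the only gene called when any of the other 5 libraries was left out. The foamy and non-foamy values did not overlap for 3 of the 8, S100a1, S100a4 and S100a9, where 25.7% of all genes tested had groups that did not overlap. The median log2 fold change of the 8 genes, foamy over non-foamy, was -0.23, against -0.04 over all genes tested. All 8 passed the filter on low counts, S100a9 only through its non-foamy libraries, so that its difference was partly set by that filter and its call adds no support to the count. Under scaling by total counts alone, without TMM factors, the median of all genes tested moved by -0.27 on the log2 scale and that of the S100 genes was -0.49.

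**Figure D1:**
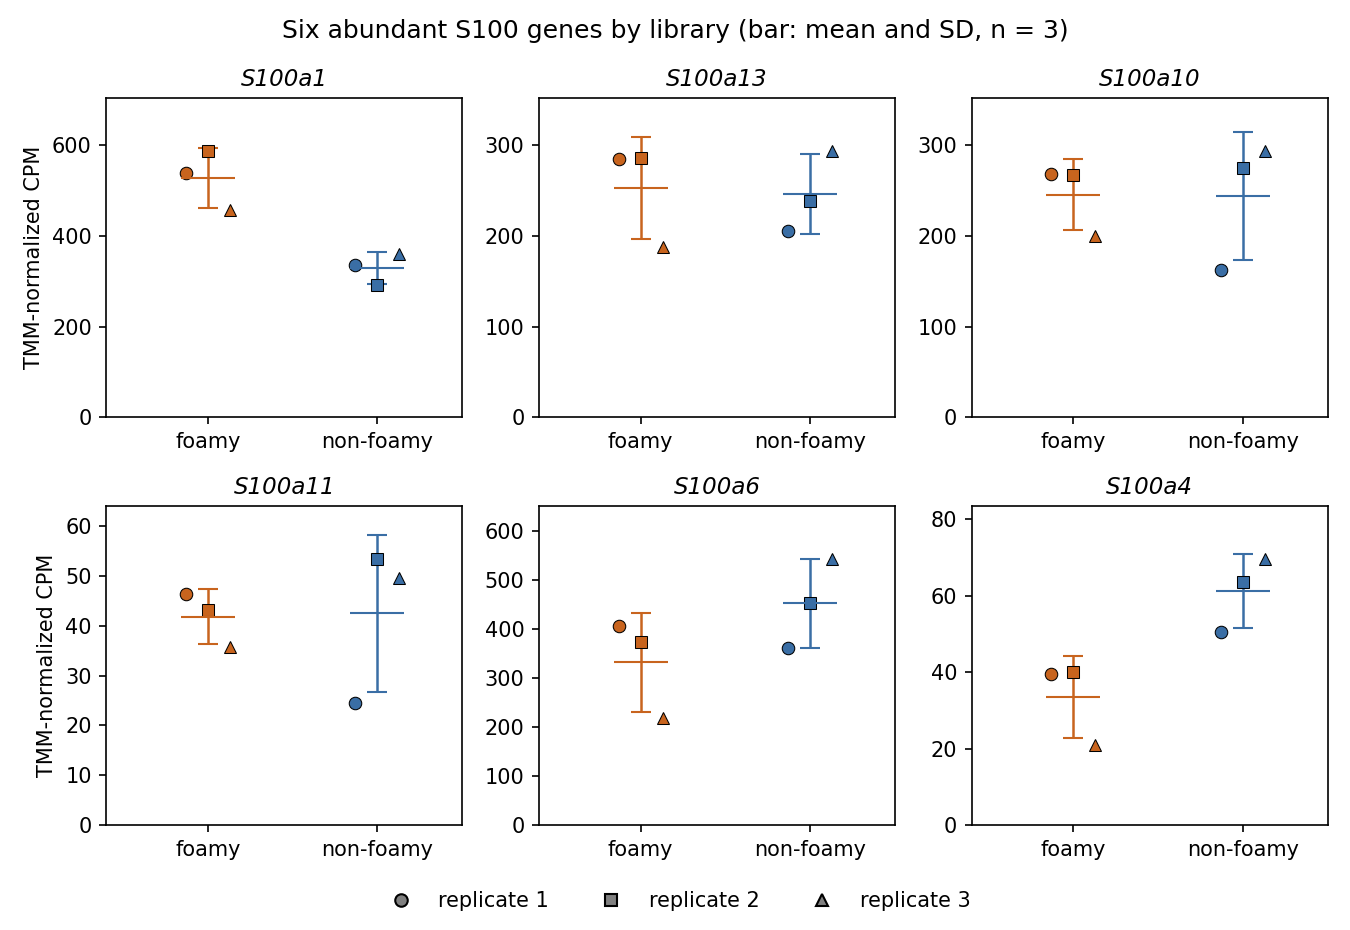
TMM-normalized CPM of the 6 S100 genes with at least 100 reads in every library, in foamy (orange, left) and non-foamy (blue, right) libraries; symbols are replicates, and bars give the mean and SD of 3. S100a1 lies higher and S100a4 lower in all 3 foamy libraries, while the groups of S100a13, S100a10, S100a11 and S100a6 overlap.

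S100a1 (ENSMUSG00000044080, minus strand, 90511034 to 90514392), best known as a regulator of calcium cycling in heart muscle, was the called gene with the higher level in foamy libraries. It had 540.0, 587 and 457 CPM in foamy replicates 1 to 3, against 336, 292 and 360.5 CPM in non-foamy replicates 1 to 3. Every foamy value lay above every non-foamy value. The means were 528 ± 65.9 CPM in foamy libraries and 330 ± 34.8 CPM in non-foamy ones (SD, n = 3 each), a 1.60-fold difference (log2 fold change 0.68 with SE 0.18; edgeR adjusted p = 0.048). The call stood close to the threshold and was lost whichever library was left out. The log2 fold change was 0.67 without foamy replicate 1, 0.61 without 2 and 0.78 without 3. It was 0.69 without non-foamy replicate 1, 0.60 without 2 and 0.76 without 3, with edgeR adjusted p between 0.062 and 0.19. Under scaling by total counts it was 0.41 (edgeR adjusted p = 0.22).

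S100a13 (ENSMUSG00000042312, plus strand, 90514435 to 90524581), whose protein takes part in the release of FGF1 and interleukin-1 alpha without a signal peptide, was not called. It had 285, 285 and 188 CPM in foamy replicates 1 to 3, against 206, 239 and 293 CPM in non-foamy replicates 1 to 3. The groups overlapped, and foamy replicate 3 was the lowest of all 6 libraries. The log2 fold change was 0.04 (SE 0.22, edgeR adjusted p = 0.96), with a 95% interval from -0.44 to 0.52, and its sign turned under 4 of 13 alternatives. The ratio of S100a1 to S100a13 per exon length, which does not depend on the scaling of a library, was 1.95, 2.12 and 2.51 in foamy replicates 1 to 3, against 1.69, 1.26 and 1.27 in non-foamy replicates 1 to 3. This ratio was higher in all 3 foamy libraries, with an exact two-sided permutation p = 0.1, the smallest that 3 against 3 libraries can give. No exon of either gene is shared with another gene in the tables, and no stretch of 50 bases, the length of a read, in their transcripts occurs in a transcript of another gene.

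S100a4 (ENSMUSG00000001020, plus strand, 90603770 to 90606045), which binds non-muscle myosin and is known for its part in cell motility, was lower in every foamy library but was not called. It had 39.5, 39.9 and 21.1 CPM in foamy replicates 1 to 3, against 50.5, 63.5 and 69.5 CPM in non-foamy replicates 1 to 3. The groups did not overlap, and the lowest value was that of foamy replicate 3. The log2 fold change was -0.87 (SE 0.29, edgeR adjusted p = 0.12), with a 95% interval from -1.50 to -0.23. It was called by DESeq2 (log2 fold change -0.87, DESeq2 adjusted p = 0.049) and by edgeR under scaling by total counts (-1.12, edgeR adjusted p = 0.043). Of the 50-base stretches in S100a4 transcripts, 47.4% also occur in Gm42674, a GENCODE M21 gene that overlaps S100a4 on the same strand and has no row in the tables.

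S100a6 (ENSMUSG00000001025, plus strand, 90612894 to 90614414), or calcyclin, binds the ubiquitin ligase adaptor encoded by Cacybp. It had 406, 373 and 218 CPM in foamy replicates 1 to 3, against 361, 454 and 542 CPM in non-foamy replicates 1 to 3. The groups overlapped, since foamy replicates 1 and 2 lay above non-foamy replicate 1. The log2 fold change was -0.44 (SE 0.25, edgeR adjusted p = 0.38), negative under all 13 alternatives and called in none of them. Within each library, however, the ratio of S100a1 to S100a6 per exon length separated the populations, at 1.38, 1.63 and 2.17 in foamy replicates 1 to 3 against 0.965, 0.667 and 0.689 in non-foamy replicates 1 to 3 (exact two-sided permutation p = 0.1, the smallest possible).

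Markers of other cell types were measured beside S100a4 and S100a6, since fibroblasts, smooth muscle, endothelium and lymphocytes also express them. Fibroblast markers summed to 2.73 to 167 CPM in foamy libraries and 8.15 to 305 CPM in non-foamy libraries, with 4 of 5 tested, none called, and the highest sum within each population in replicate 3. Smooth muscle markers summed to 2.90 to 26.7 CPM in foamy libraries and 2.75 to 21.6 CPM in non-foamy libraries (2 of 5 tested, none called), and endothelial markers to 9.64 to 14.9 CPM in foamy libraries against 12.4 to 16.5 CPM in non-foamy libraries (3 of 5 tested, none called). The 5 lymphocyte markers summed to 0.054 to 1.04 CPM in foamy libraries and 0.22 to 7.80 CPM in non-foamy libraries and were too low to test. The part of these markers in the S100 values was not tested.

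S100a9 (ENSMUSG00000056071, minus strand, 90692632 to 90695721), a calprotectin subunit, was close to absent from foamy libraries. It had 0, 0 and 1 reads in foamy replicates 1 to 3, against 58, 308 and 33 reads in non-foamy replicates 1 to 3. Non-foamy replicates 1 to 3 stood at 3.71, 18.3 and 1.34 CPM without TMM factors, so that non-foamy replicate 2 held 77.2% of the non-foamy reads. The floor of 3 counts corresponds to 0.124 and 0.161 CPM in foamy replicates 1 and 2, where no read was seen. Summed over the libraries of each population, 1 foamy against 399 non-foamy reads gave a ratio of non-foamy over foamy of 444, with an exact 95% counting interval of 79.2 to 17569.9. Counting intervals and floors, here and below, treat reads as independent and leave out the spread among libraries. The reads carry no molecular identifiers, so copies of 1 molecule could not be told apart and the intervals may be too narrow. The edgeR adjusted p was 0.0077, in a test that the filter partly fixed, and the size of its fitted log2 fold change, -8.23 (SE 1.46), depends on the prior count used for zeros. The call was lost without non-foamy replicate 2 (log2 fold change -6.55, edgeR adjusted p = 0.070) and in limma-voom (-6.62, limma adjusted p = 0.11). In bulk RNA, fewer cells that carry the transcript and less of it per cell cannot be told apart.

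S100a8 (ENSMUSG00000056054, plus strand, 90669071 to 90670034), the other calprotectin subunit, was not called. It had 48, 27 and 43 reads in foamy replicates 1 to 3, against 68, 273 and 0 reads in non-foamy replicates 1 to 3. The foamy values were close to each other, at 1.98, 1.45 and 2.08 CPM without TMM factors, and lay between those of the non-foamy libraries, at 4.35, 16.2 and 0 CPM. The log2 fold change was -1.61 (SE 1.29, edgeR adjusted p = 0.58), with a 95% interval from -4.44 to 1.22. Without non-foamy replicate 2, which held 80.1% of the non-foamy reads, it was 0.16.

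The balance between the subunits' reads differed from library to library. S100a8 made up 100% of the reads of both genes in foamy replicates 1 and 2 (exact Clopper-Pearson 95% intervals from 92.6% and from 87.2%) and 97.7% in foamy replicate 3 (88.0% to 99.9%). In non-foamy replicates 1 and 2 it made up 54.0% (44.9% to 62.9%) and 47.0% (42.9% to 51.1%). In non-foamy replicate 3 it was not seen among 33 reads, which allows a share of up to 10.6%. Reads of S100a8 without S100a9 were thus the rule in the foamy libraries, and S100a9 without S100a8 was seen in 1 non-foamy library.

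**Figure D2:**
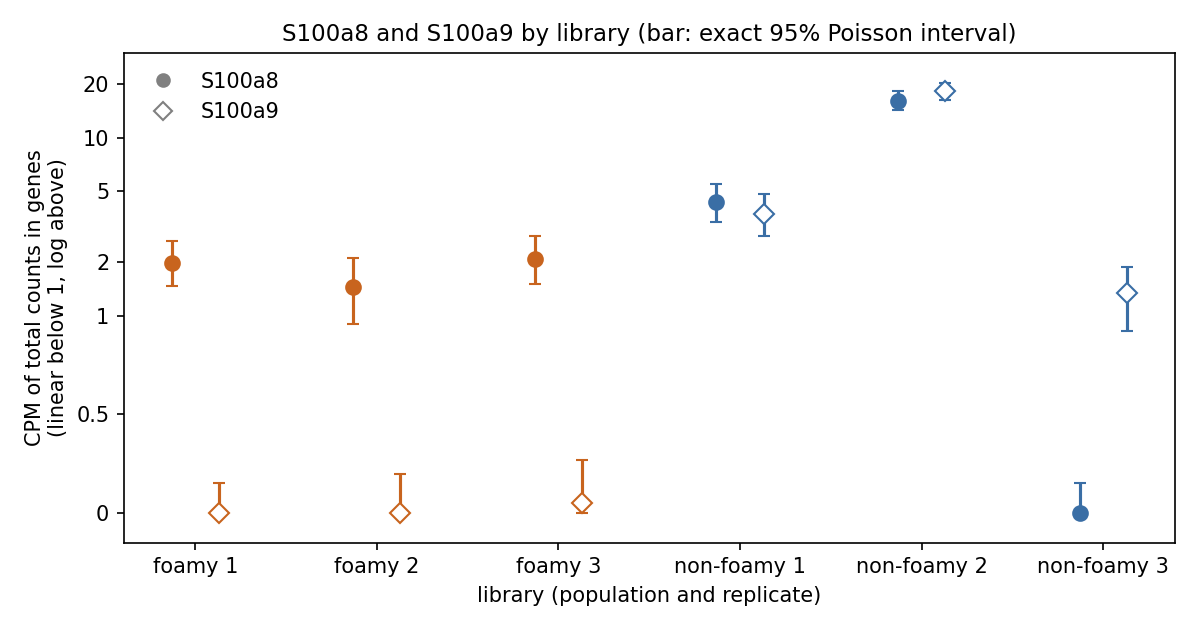
CPM of S100a8 (filled circles) and S100a9 (open diamonds) in each library, foamy in orange and non-foamy in blue, without TMM factors; bars are exact 95% Poisson intervals of the counts, and the axis is linear below 1 and logarithmic above. Foamy libraries show S100a8 at 1.45 to 2.08 CPM with S100a9 near 0, non-foamy replicate 2 is the highest for both, and non-foamy replicate 3 shows S100a9 alone.

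Neutrophils and monocytes are the main known carriers of calprotectin, and their markers were read in the same libraries. Of 13 neutrophil markers, 3 were tested, 1 was higher in foamy libraries (Mmp8, a collagenase), beside 2.5% of all genes, and none was lower. The summed level, 44.4 to 70.7 CPM in foamy libraries and 15.03 to 20.3 CPM in non-foamy libraries, was mostly that of Mmp8, which averaged 38.4 CPM in foamy libraries against 5.62 CPM in non-foamy ones, and of Csf3r, which averaged 19.98 CPM in foamy libraries against 7.64 CPM in non-foamy ones. Retnlg ran the other way, with 0, 1 and 1 reads in foamy replicates 1 to 3 against 72, 15 and 0 reads in non-foamy replicates 1 to 3. Lcn2 had 1, 1 and 0 reads in foamy replicates 1 to 3 against 13, 0 and 0 reads in non-foamy replicates 1 to 3, and both were too low to test. Ly6g, a defining marker, had 3 reads in non-foamy replicate 1 and none elsewhere, and Camp had no read in any library. Of 8 monocyte markers, 7 were tested, 5 were lower in foamy libraries, beside 2.9% of all genes, and none was higher. Of these 5, Plac8, Vcan and Ly6c2 passed the filter on low counts only through their non-foamy libraries, so that the filter partly fixed their calls. The median log2 fold change of the 7 was -4.52. The summed level of the 8 markers was 18.5 to 28.2 CPM in foamy libraries. It was 353, 660 and 402 CPM in non-foamy replicates 1 to 3. The most reads of S100a8 and S100a9 were in non-foamy replicate 2. Non-foamy replicate 1, with the lowest sum of the non-foamy libraries, had more reads of both genes than non-foamy replicate 3. Ccr2 had 6.08, 5.63 and 1.402 CPM in foamy replicates 1 to 3 against 242, 322 and 208 CPM in non-foamy replicates 1 to 3. Plac8 had 0, 0.0557 and 0 CPM in foamy replicates 1 to 3 against 24.2, 22.5 and 24.8 CPM in non-foamy replicates 1 to 3. Both were lower in every foamy library. Ly6c2 had 0.237, 0.0557 and 2.05 CPM in foamy replicates 1 to 3 against 13.3, 12.8 and 11.6 CPM in non-foamy replicates 1 to 3. Dendritic cell markers, of which only Cd209a was tested and was not called, summed to 0.38 to 16.1 CPM in foamy libraries and 33.1 to 253 CPM in non-foamy libraries. The non-foamy sums were mostly Cd209a, at 178, 249 and 32.2 CPM in non-foamy replicates 1 to 3. Clec9a, too low to test, ran the other way, with 0, 22 and 33 reads in foamy replicates 1 to 3 and none in non-foamy libraries. The part of monocytes, dendritic cells or neutrophils in the S100a9 difference was not tested.

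S100a10 (ENSMUSG00000041959, plus strand, 93555080 to 93564643) and S100a11 (ENSMUSG00000027907, plus strand, 93520488 to 93526287), whose proteins bridge annexins at membranes, had nearly equal group means. S100a10 had 269, 267 and 200.1 CPM in foamy replicates 1 to 3, against 163, 275 and 293 CPM in non-foamy replicates 1 to 3. S100a11 had 46.4, 43.2 and 35.7 CPM in foamy replicates 1 to 3, against 24.4, 53.3 and 49.6 CPM in non-foamy replicates 1 to 3. The non-foamy values enclosed all 3 foamy values for both genes, and non-foamy replicate 1 was the lowest of the 6 libraries for both. The log2 fold change of S100a10 was 0.01 (SE 0.24, edgeR adjusted p = 0.99), with a 95% interval from -0.51 to 0.53. That of S100a11 was -0.02 (SE 0.31, edgeR adjusted p = 0.98), with a 95% interval from -0.70 to 0.65. Of the 50-base stretches in S100a11 transcripts, 41.1% also occur in 3 processed pseudogenes, of which Gm12854 had 2 to 5 reads a library.

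The genes of the annexins they bind stood differently. Anxa2, the partner of S100a10, had 2260, 2015 and 2150 CPM in foamy replicates 1 to 3 against 1271, 1175 and 858.5 CPM in non-foamy replicates 1 to 3 (log2 fold change 0.96, SE 0.19, edgeR adjusted p = 0.013). Anxa1, the partner of S100a11, had 4827, 4385 and 4354 CPM in foamy replicates 1 to 3 against 2345, 2681 and 2133 CPM in non-foamy replicates 1 to 3 (log2 fold change 0.92, SE 0.17, edgeR adjusted p = 0.0085). Both annexin genes were higher in every foamy library. Per exon length, the ratio of Anxa2 to S100a10 was 2.73, 2.45 and 3.49 in foamy replicates 1 to 3 against 2.54, 1.39 and 0.951 in non-foamy replicates 1 to 3, and the groups overlapped (exact two-sided permutation p = 0.2). The ratio of Anxa1 to S100a11 was 20.4, 19.9 and 23.9 in foamy replicates 1 to 3 against 18.8, 9.86 and 8.43 in non-foamy replicates 1 to 3, and the groups were apart (exact two-sided permutation p = 0.1, or 0.2 adjusted over these 2 pairs). Anxa2 was no longer called when foamy replicate 1 (log2 fold change 0.93) or 3 (0.96) was left out, without non-foamy replicate 2 (1.01) and under scaling by total counts (0.67).

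**Figure D3:**
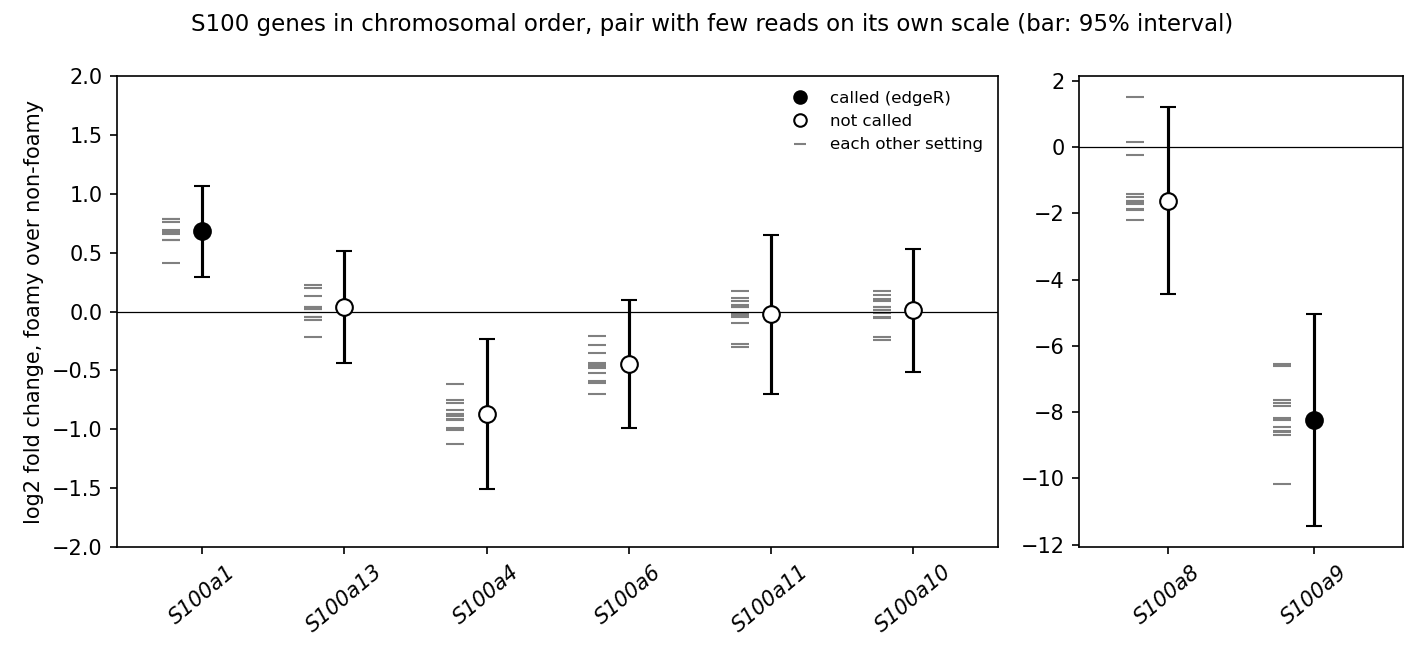
Log2 fold change, foamy over non-foamy, of the 8 S100 genes with 95% intervals (black; filled where called by edgeR) and the value under each other setting (grey dashes); the 6 genes with more reads stand on the left in chromosomal order, and S100a8 and S100a9 on the right with a wider scale. S100a1 lies at 0.68, S100a4 at -0.87 and S100a9 at -8.23, while S100a13, S100a11 and S100a10 lie within 0.04 of 0 and the settings for S100a8 fall on both sides of it.

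Per exon length, the order of the S100 genes differed between the populations. In foamy libraries S100a1 ranked first, at 694 ± 114 RPKM (CPM per kilobase of exon, without TMM factors; SD, n = 3), then S100a6 at 421 ± 129, S100a13 at 322 ± 77.4, S100a10 at 184 ± 32.9, S100a11 at 74.4 ± 10.2 and S100a4 at 52.1 ± 17.6 RPKM. In non-foamy libraries S100a6 ranked first, at 684 ± 92.5 RPKM, then S100a1 at 521 ± 61.1, S100a13 at 374 ± 43.4, S100a10 at 218 ± 51.1, S100a4 at 113 ± 10.6 and S100a11 at 89.7 ± 29.4 RPKM. The neighbours whose ranges overlapped were S100a6 with S100a13 and S100a11 with S100a4 in foamy libraries, and S100a4 with S100a11 and S100a8 with S100a9 in non-foamy libraries. S100a8 averaged 4.69 ± 0.862 RPKM in foamy and 17.5 ± 21.4 RPKM in non-foamy libraries.

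The summed level of the 8 genes did not separate the populations, at 1846, 2067 and 1348 RPKM in foamy replicates 1 to 3 against 1840, 2042 and 2212 RPKM in non-foamy replicates 1 to 3. Its make-up did. S100a1 gave 36.6%, 39.5% and 43.9% of the sum in foamy replicates 1 to 3 against 31.1%, 22.2% and 24.2% in non-foamy replicates 1 to 3. S100a6 gave 26.6%, 24.3% and 20.2% in foamy against 32.2%, 33.3% and 35.2% in non-foamy replicates 1 to 3, and S100a4 gave 3.17%, 3.18% and 2.39% in foamy against 5.52%, 5.70% and 5.53% in non-foamy replicates 1 to 3. The share of S100a13 stayed within 17.5% to 18.7% in foamy and 17.6% to 19.1% in non-foamy libraries, and S100a10 gave 10.6 ± 0.38% in foamy and 10.6 ± 1.77% in non-foamy libraries (SD, n = 3 each). Among the 6 genes with at least 100 reads in every library, 15 ratios of 1 gene to another were formed, and 9 had groups that did not overlap. These were S100a1 against S100a13, and 8 ratios that include S100a4 or S100a6. The ratios share genes and so are not independent. Each of the 9 had an exact permutation p = 0.1, the smallest possible, and the adjusted value over 15 was 0.17. How often ratios of other genes separate the populations was not computed, so the count of 9 is a description. Among S100a10, S100a11 and S100a13, the group means of the 3 ratios differed between populations by at most 0.021 on the log2 scale. The ratios varied within a population, however. In non-foamy replicates 1 to 3, S100a11 to S100a13 stood at 0.166, 0.313 and 0.237, and S100a10 to S100a13 at 0.467, 0.680 and 0.590.

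**Figure D4:**
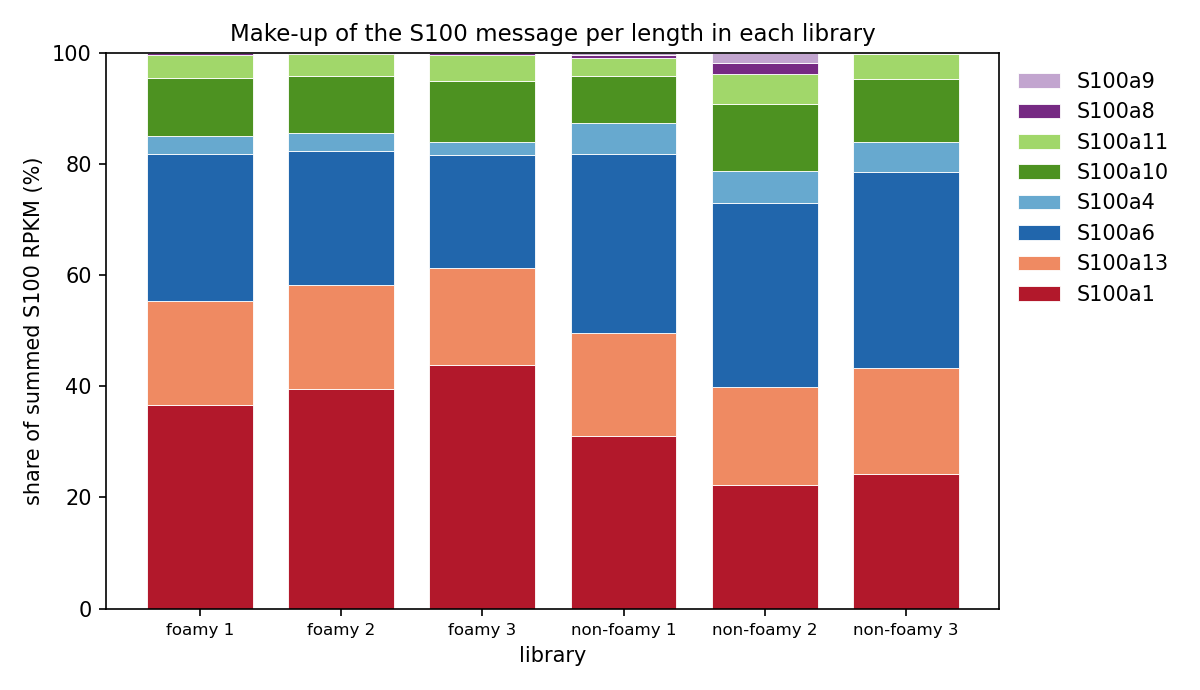
Share of the summed RPKM of 8 S100 genes that each gene gives, per library, foamy on the left and non-foamy on the right. S100a1 (dark red) takes 36.6% to 43.9% in foamy and 22.2% to 31.1% in non-foamy libraries, and S100a6 (dark blue) 20.2% to 26.6% in foamy and 32.2% to 35.2% in non-foamy libraries, while S100a13 (orange) stays between 17.5% and 19.1% in all.

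Libraries of 1 population also differed together. Foamy replicate 3 was the lowest foamy library for all 6 of the more abundant genes. Among non-foamy libraries, replicate 1 was the lowest for 5 of the 6, all but S100a1, and replicate 3 the highest for 5 of the 6, all but S100a11. In the sum of TMM-normalized CPM this gave 1588, 1597 and 1122 in foamy replicates 1 to 3, against 1148, 1408 and 1609 in non-foamy replicates 1 to 3.

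The tables list 9 further protein-coding S100 genes, and none reached the filter on low counts. S100z and S100g had no read in any library. S100a7a, a gene best known from inflamed skin, had 1, 0 and 2 reads in foamy replicates 1 to 3 against 46, 0 and 0 reads in non-foamy replicates 1 to 3. S100b, best known from glia, had 0, 1 and 1 reads in foamy replicates 1 to 3 against 1, 0 and 57 reads in non-foamy replicates 1 to 3. Each of these signals thus came from 1 library, and Schwann cell markers summed to 0.236 CPM in non-foamy replicate 3, within the 0.162 to 2.12 CPM of foamy libraries and the 0.22 to 0.542 CPM of non-foamy libraries. S100a3 had 9 reads in foamy replicate 1 and 0 in the other foamy libraries, against 2, 1 and 0 reads in non-foamy replicates 1 to 3. S100a14, S100a16, S100a2 and S100a5 had at most 3 reads in any library.

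Of 27 genes for proteins that S100 proteins bind or act through, 21 were tested. Of these, 3 were called higher in foamy libraries, beside 2.5% of all genes called higher, and none was lower. The list was chosen with earlier results of these data known, so its count is a description. The median log2 fold change of the 21 was 0.06, against -0.04 over all genes tested. Besides Anxa1 and Anxa2, the third was the scavenger receptor gene Cd36, a known receptor of the complex of S100a8, S100a9 and arachidonic acid, at 914, 984 and 1065 CPM in foamy replicates 1 to 3 against 603, 588 and 459.7 CPM in non-foamy replicates 1 to 3 (log2 fold change 0.84, edgeR adjusted p = 0.017). Its call was lost without foamy replicate 2 (0.86) or 3 (0.79), without non-foamy replicate 2 (0.90), under scaling by total counts (0.57) and with the replicate number as a block (0.85, edgeR adjusted p = 0.074). Under scaling by total counts, the partner genes called were Anxa1, higher, and Mdm2, lower. Other receptors of released S100 proteins were not called. Tlr4, the Toll-like receptor gene, had a log2 fold change of -0.08 (95% interval -0.60 to 0.45), Bsg, which encodes basigin, of 0.37 (-0.31 to 1.04) and Nptn, which encodes neuroplastin, of 0.29 (-0.13 to 0.70), though its foamy values, 337 to 383 CPM, all lay above its non-foamy values, 228 to 324 CPM. Ager, which encodes RAGE, was too low to test, at 0.669 CPM or less in every library.

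The other intracellular partners named here were not called either. Ahnak, a scaffold that binds the S100a10 and annexin A2 complex, had a log2 fold change of -0.30 (95% interval -0.87 to 0.27), Anxa6 of 0.42 (-0.41 to 1.25) and Anxa11 of 0.90 (-0.87 to 2.66). Il1a, whose product leaves the cell with S100a13, had 92.5, 131 and 129 CPM in foamy replicates 1 to 3 against 33.7, 118 and 66.9 CPM in non-foamy replicates 1 to 3, and the groups overlapped (log2 fold change 0.69, edgeR adjusted p = 0.36). Of 19 genes of other EF-hand proteins, calmodulins and calpains among them, all were tested and none was called by edgeR, 3 (Sdf4, Capns1 and Nucb1) had an unadjusted p below 0.05, and their median log2 fold change was 0.04. DESeq2 called 1 of them, Sdf4, which encodes a calcium-binding protein of the Golgi, and limma-voom none.

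**Figure D5:**
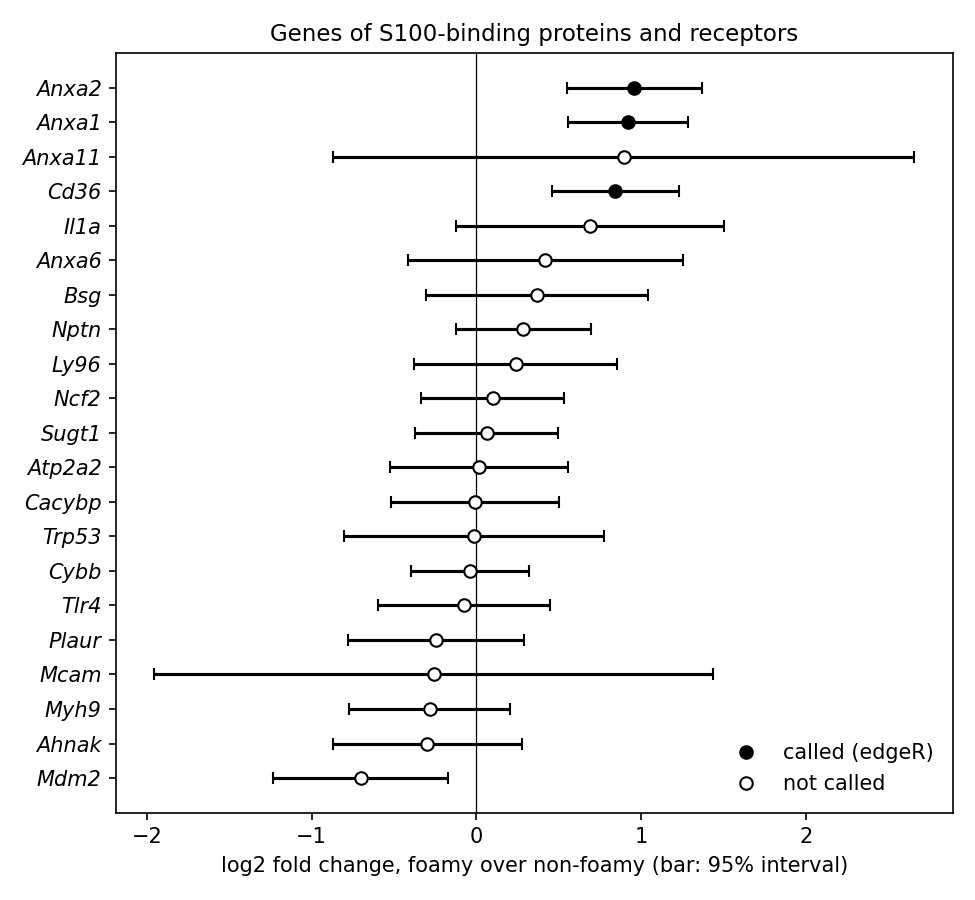
Log2 fold change, foamy over non-foamy, with 95% intervals, of the 21 tested genes for proteins that S100 proteins bind or act through, ordered by value; filled points were called by edgeR. Anxa2, Anxa1 and Cd36 lie between 0.84 and 0.96 with intervals clear of 0, and the rest were not called.

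The genes whose pattern over the 6 libraries was most like each S100 gene were taken by the root mean square difference of centred log2 values among 6078 genes with a mean of at least 10 CPM. For S100a1 these were Cisd1, an iron-sulfur protein of the outer mitochondrial membrane, and Mthfs, an enzyme of folate metabolism, with differences of 0.06 each. For S100a13 they were Atp5j, a subunit of the ATP synthase, and Mrpl35, of the mitochondrial ribosome (0.05 each), and for S100a10 the mitochondrial mt-Cytb (0.05) and Snrpe (0.08). S100a11 lay nearest to Tmed1 (0.08) and Chchd2 (0.09), S100a6 to Ypel3 and Ewsr1 (0.10 each) and S100a4 to Nfat5 and Pcif1 (0.16 each). S100a9 lay nearest to F13a1, which encodes a coagulation factor subunit and is a monocyte marker here (0.98), and to Mir155hg (1.18), and S100a8 to Cd24a (1.15) and Vps16 (1.28), so that no gene followed either closely. Likeness over 6 libraries of 2 populations rests on few values and is given as a description.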

How the data were processed

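Counts, CPM and RPKM per gene were deposited by the authors for 6 libraries, 3 foamy and 3 non-foamy. Per the submitters' processing notes, the tools were STAR 2.0.4b, Subread and featureCounts 1.4.5 with the GRCm38 build. Per the labels' protocols, cDNA came from sorted cells lysed directly, by the SMARTer Ultra Low RNA kit, and fragments amplified over 12 cycles were read as single 50-base reads. How strand and multi-mapped reads were handled is not given in the sources used here. The deposited counts are raw reads per gene. The deposited CPM are counts scaled to a gene total of 1000000, and the deposited RPKM are those CPM per kilobase of exon length, each checked to within 1e-06.

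Counts were tested with edgeR 4.0.16 in R 4.3.3 (filterByExpr, TMM factors, robust quasi-likelihood F-test, Benjamini-Hochberg over all genes, threshold 0.05). Each SE was computed as the absolute log2 fold change divided by the root of F, and 95% intervals use that SE. The biological coefficient of variation was 0.51. Alternatives were RLE factors, total counts only, DESeq2 1.42.0, limma-voom (limma 3.58.1), 2 other filters, the replicate number as a block, and each library left out. The procedure was checked on simulated data. Ratios within a library were tested with exact permutations (scipy 1.17.1), and every pair of libraries of a group differed by more than sampling noise (chi-square over its degrees of freedom, 50.7 to 143). Exon overlap and shared 50-base stretches came from the tables and GENCODE M21, and upstream sequences from RefSeq.

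The S100 genes and the lists were chosen with earlier results of these data known. Named genes were the 8 S100 genes, the rest of the family, called partners and 10 fixed ones, sorting and cell type markers, and the 2 most similar genes of each S100 gene with at least 10 CPM (pseudocount 0.1 CPM). Mmp8, Csf3r, Retnlg, Lcn2, Camp, Vcan, Adgre1, Csf1r, Cd68, Mertk, Cd209a, Clec9a, F13a1 as a marker, Mdm2 and the uncalled EF-hand genes were named after their values were seen.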

Additional observations from a re-analysis of the deposited data

How the results depend on the processing

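Of 102 recomputed fold changes of the S100 genes, 73 kept their sign and their side of the threshold. S100a1 (0.68) stayed above 0 but was not called with total counts only (0.41) or with the replicate block (0.68), nor with any library left out (0.60 to 0.78). S100a9 was not called in limma-voom (-6.62), and ranged from -10.17 to -6.55 without 1 library. S100a4 was called with total counts only (-1.12) and in DESeq2 (-0.87), and ranged from -1.002 to -0.61 without 1 library. S100a8 changed sign in limma-voom (1.51) and without non-foamy replicate 2 (0.16; range from -2.19). S100a10 changed sign with total counts only (-0.24) and the stricter filter (-0.011), and ranged from -0.22 to 0.17 without 1 library. S100a11 changed sign in limma-voom (0.037), without a filter (0.052) and with the replicate block (0.042), and ranged from -0.30 to 0.18 without 1 library. S100a13 changed sign with total counts only (-0.22), and ranged from -0.076 to 0.22 without 1 library. The causes were not tested, except that total counts only moved the median of all genes by -0.27.

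The number of S100 genes called, 2, was 3 in DESeq2 (S100a1, S100a4 and S100a9) and 2 with total counts only (S100a4 and S100a9, both lower). It was 1 in limma-voom, with the stricter filter (which S100a8 and S100a9 did not pass) and with the replicate block, and 0 to 1 without 1 library; it was 0 without non-foamy replicate 2. All genes called numbered 611, and 1173 in DESeq2, 391 with the replicate block and 271 to 579 without 1 library. Partner genes called, 3, fell to 1 without foamy replicate 3 or non-foamy replicate 2 (1 to 3 over the libraries), and were 1 higher (Anxa1) and 1 lower (Mdm2) with total counts only. Other EF-hand genes called, 0, were 1 in DESeq2 (Sdf4) and 1 without a filter (Nucb1). Same-numbered libraries did not deviate together (correlations -0.07, -0.02 and -0.03, none best with its own number), and whether they share mice is not given. For S100a8 and S100a9 the depth limits every statement, with 459 and 400 reads over all libraries.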
